A study of Mus musculus with 6 samples.

Results

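The enzymes described here finish the sugar chains of glycoproteins and glycolipids. They are the sialyltransferases, galactosyltransferases and fucosyltransferases, and the N-acetylglucosaminyltransferases that branch N-glycans. Members were taken by symbol: every gene of the deposited table whose name starts with St3gal, St6gal, St6galnac, St8sia, B4galt, B3galt, Mgat or Fut and goes on with a number, with B4galt7 and B3galt6 left out. This gave 41 of the 26231 genes in the table. The naming rule uses no measured value.

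RNA came from immortalized mouse embryonic fibroblasts (MEFs), connective tissue cells grown out of embryos. There were 3 libraries labelled MEF WT, the control, and 3 labelled MEF Nf2 KO, a knockout of Nf2, the gene of the tumor suppressor Merlin. The labels give the FVB strain, embryos of about 14 days and 24 h in serum-free medium for all 6 libraries. The study's methods give an earlier day of harvest for the embryos. By the study's methods, both lines came from embryos with loxP-flanked Nf2 alleles (Nf2 fl/fl), so the libraries labelled WT also carry those flanked alleles. Both lines were immortalized with SV40 large T antigen, then given a lentivirus that carries GFP alone or GFP with Cre recombinase, each driven by a CMV promoter. Each label stands for 1 cell line, and the sources do not say whether a line is 1 clone. The replicate labels do not say that libraries came from separate cultures, so p-values measure only the spread between these libraries, which may be technical.

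Nf2 RNA did not separate the labels. It was listed at 14.3, 13.7 and 13.1 RPKM in the MEF WT libraries and at 15.4, 12.9 and 13.9 RPKM in the Nf2 KO-labelled libraries (p = 0.8 in a two-sided exact permutation test, which cannot go below 0.1 here). RPKM is a read count scaled to exon length and to sequencing depth. The table has 1 value for the whole gene, so a deleted part cannot be seen, and every direction below follows the labels. The depth worked out from the steps between low values was 13397318 to 72753393 reads per library, and the libraries with the mark 2018, replicate 3 in both lines, were the deepest. Replicate 2 of each line stood apart from the others. The 8 fibroblast markers summed to 1444 to 2550 RPKM, with Col1a1 at 265 to 712 RPKM. The sum was 1853 to 2550 RPKM in MEF WT and 1444 to 1876 RPKM in the Nf2 KO-labelled libraries. Of the 8 markers 4 (Pdgfra, Fn1, Thy1 and Vim) were lower in the Nf2 KO-labelled libraries without overlap. Among all genes tested 15.1% showed such separation, in either direction. Of these 4 markers Pdgfra and Fn1 passed the test described below (adjusted p = 0.0329 and 0.039 by limma). They were at 5.22 to 12.3 against 0.657 to 1.42 RPKM and at 455 to 491 against 295 to 314 RPKM. Pdgfrb overlapped at 10.2 to 34.4 against 8.92 to 34.5 RPKM. With the replicate block described below Thy1 and Col3a1 also passed (limma adjusted p = 0.00716 and 0.0274). Both were lower in the Nf2 KO-labelled libraries in each same-numbered pair, although the Col3a1 groups overlapped. Summed markers of macrophages (10 genes, 2.07 to 3.89 RPKM), endothelium (7 genes, 1.46 to 4.46 RPKM), Schwann cells and neural crest (5 genes in the table, 1.20 to 1.58 RPKM), epithelium (7 genes, 10.8 to 39.9 RPKM, nearly all from Krt19) and skeletal muscle (8 genes in the table, 0.931 to 6.65 RPKM) overlapped between the lines. In each line the endothelial, epithelial and muscle sums were highest, and the fibroblast sum lowest, in replicate 2. The endothelial and muscle rises came almost only from Kdr and Acta1. In replicate 2 of MEF WT and of the other line Kdr was at 3.75 and 4.39 RPKM, and Acta1 at 6.25 and 2.57 RPKM. Ptprc and Cdh1, defining markers of blood cells and epithelium, were at 0.0419 RPKM or less in every library. The part of these marker levels in the results was not tested. In bulk RNA, fewer cells of a type and less RNA per cell cannot be told apart.

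Glycan chains are built by adding sugars one at a time, and the order of the enzymes in the Golgi decides the product. On N-glycans, which are linked to asparagine, Mgat enzymes start the antennae, B4galt enzymes add galactose to each antenna, and sialyltransferases cap the galactose. Fucosyltransferases add fucose to the core or to the antennae. O-glycans, linked to serine or threonine, and glycolipids are capped by other members of the same families. In fibroblasts such chains are carried by integrins, growth factor receptors and extracellular matrix proteins.

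The promoters of 3 members that were lower in the Nf2 KO-labelled libraries in all 3 same-numbered pairs are shown, because these genes passed the threshold in the fit with replicate pairs below. The promoter of St3gal1, which passed in both fits, was not analysed here. RefSeq (build GRCm38.p6) gave a promoter for 30 of the 41 members, and the 250 bases before the first base of the transcript are printed 5′ to 3′ on the strand of the gene. Capitals mark a GC box (GGGCGG or CCGCCC), a TEAD motif (GGAATG or CATTCC) or an AP-1 motif (TGANTCA). TEAD factors bind DNA for YAP and TAZ, which act in the Hippo pathway downstream of Merlin. The B4galt1 window is chr4:40853985-40854234, minus strand, the Mgat5 window is chr1:127204736-127204985, plus strand, and the St6gal1 window, 1 of 3 in the table, is chr16:23224490-23224739, plus strand.
B4galt1: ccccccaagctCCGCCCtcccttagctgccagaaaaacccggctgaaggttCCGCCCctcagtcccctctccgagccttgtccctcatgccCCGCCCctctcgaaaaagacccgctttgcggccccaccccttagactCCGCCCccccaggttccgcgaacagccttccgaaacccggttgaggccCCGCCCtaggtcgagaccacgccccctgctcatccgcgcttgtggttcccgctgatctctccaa
Mgat5: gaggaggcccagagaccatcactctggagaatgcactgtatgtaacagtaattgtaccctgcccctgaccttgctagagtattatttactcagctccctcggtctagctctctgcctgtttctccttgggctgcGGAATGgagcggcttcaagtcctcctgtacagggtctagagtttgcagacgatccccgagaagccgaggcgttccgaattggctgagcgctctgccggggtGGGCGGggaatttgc
St6gal1: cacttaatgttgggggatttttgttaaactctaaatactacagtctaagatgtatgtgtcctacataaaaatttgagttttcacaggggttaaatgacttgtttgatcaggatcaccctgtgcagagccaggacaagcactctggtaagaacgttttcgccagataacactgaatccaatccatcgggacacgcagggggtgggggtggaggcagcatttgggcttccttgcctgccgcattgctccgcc

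The B4galt1 window has a GC content of 66.4% and holds 5 GC boxes. The Mgat5 window (56.0% GC) holds 1 GC box and 1 TEAD motif, which starts 116 bases before the start site, and the printed St6gal1 window (47.2% GC) holds none of the motifs. Of the other 2 St6gal1 windows, the one at chr16:23290220-23290469 holds 1 AP-1 motif and the one at chr16:23225771-23226020 none of the motifs. Counted on both strands in the first window listed for each gene, the TEAD motif was in 12.6% of all 27025 promoters of that length and in 10.2% of those of the genes tested, and in 5 of the 30 member promoters (Fut11, Mgat2, Mgat4e, Mgat5 and St3gal6). The GC box was in 32.9% of all promoters, in 63.1% of those of the genes tested and in 20 of the 30. The AP-1 motif was in 6.9% of all promoters, in 3.8% of those of the genes tested and in 1 of the 30 first windows, that of Mgat4e. A match of letters is a description of the window and not a binding site.

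The members covered the range from no reads to the levels of abundant Golgi enzymes. Of the 41, 25 reached 1 RPKM in 3 or more libraries and were tested, and 16 did not. The tested members were 5 of 6 St3gal, the single St6gal, 2 of 5 St6galnac, 0 of 6 St8sia, 6 of 6 B4galt, 1 of 3 B3galt, 6 of 9 Mgat and 4 of 5 Fut genes. The highest mean was that of Mgat2, at 35.3 RPKM. A median tested member had 5.61 RPKM, against 7.62 RPKM for all genes tested.

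**Figure D1:**
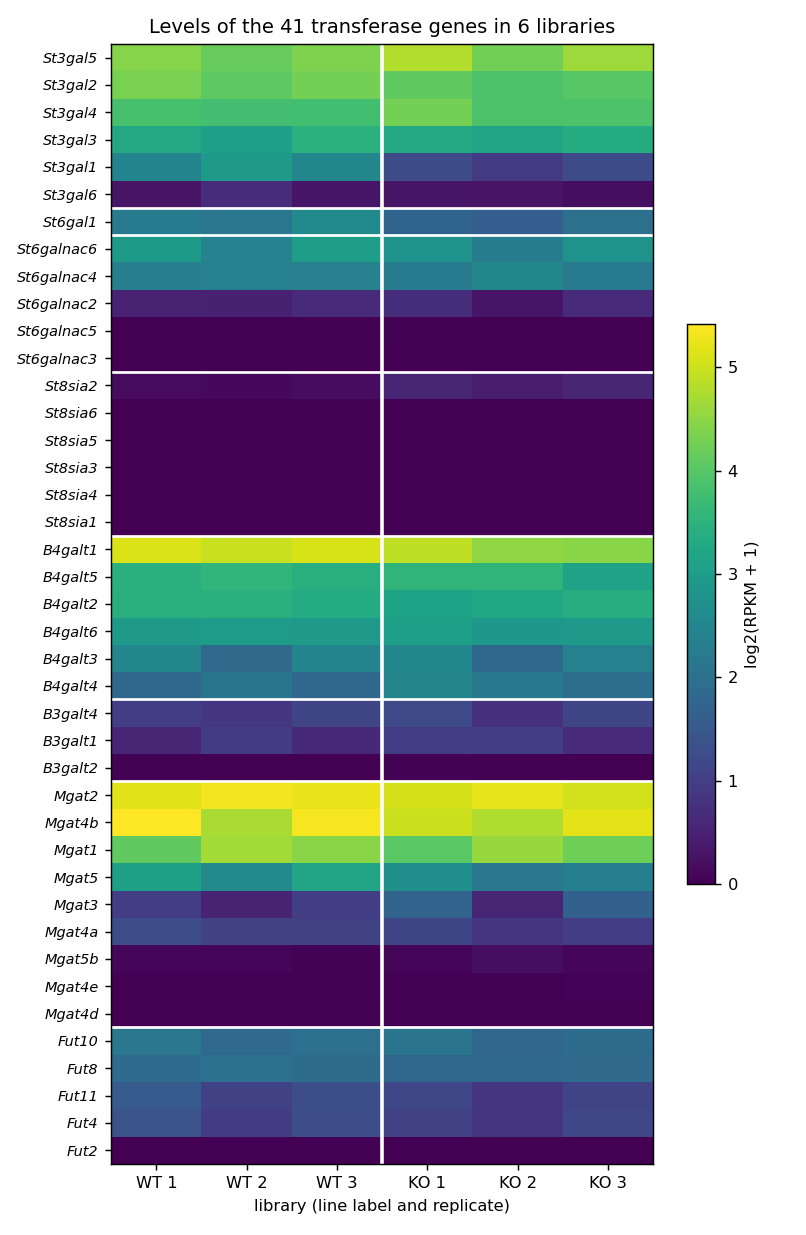
Levels of the 41 members in each of the 6 libraries as log2(RPKM + 1), grouped by family with white lines, with MEF WT libraries on the left and Nf2 KO-labelled libraries on the right. The B4galt1, Mgat2 and Mgat4b rows are the brightest, the St8sia rows are near 0 throughout, and the St3gal1 row darkens from 4.45 to 6.51 RPKM on the left to 0.901 to 1.41 RPKM on the right.

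The lines were compared with limma on log2(RPKM + 1), and p-values were adjusted by Benjamini-Hochberg across the 11067 genes, with 0.05 as threshold. One member, St3gal1, passed, and it was lower in the Nf2 KO-labelled libraries. That is 4% of the 25 members tested, where 1.06% of all genes passed. Same-numbered libraries of the lines deviated together, most clearly in replicate 2, and a further fit took the replicate number as a block. In that fit 4 members passed, St3gal1, St6gal1, Mgat5 and B4galt1, all lower, which is 16% of the members against 7.53% of all genes. Over all genes lower calls were also the more frequent in that fit, 502 lower and 331 higher, and without the block 64 were lower and 53 higher. In 5 of the 25 members the 3 libraries of a line lay entirely on one side of the other line, 4 of them lower and 1 higher in the Nf2 KO-labelled libraries, where 15.1% of all genes showed such separation. Of the 25 members, 18 had a log2 fold change below 0 and 7 above, with a median of -0.12, and over all genes 52.1% were below 0 with a median of -0.0078. The median was -0.083 under quantile normalization, -0.12 under median centring and -0.066 without MEF WT replicate 1. Within the same-numbered pairs 13 members were lower in all 3 pairs (52%, against 24.6% of all genes) and 4 were higher in all 3 (16%, against 22.3%).

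**Figure D2:**
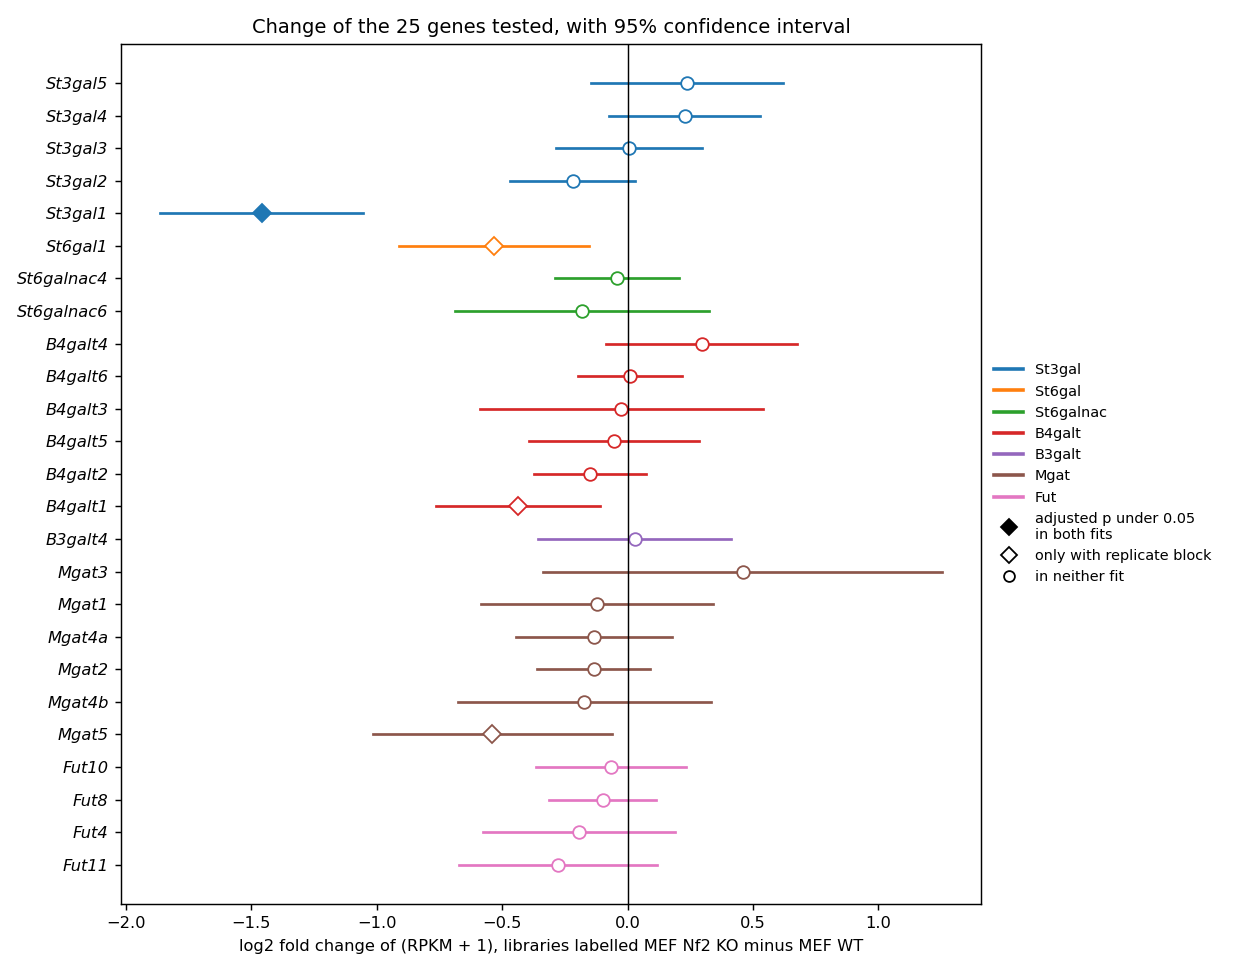
Log2 fold change of (RPKM + 1) for the 25 members tested, Nf2 KO-labelled minus MEF WT, with the 95% confidence interval of the fit without the block, coloured by family. St3gal1, at -1.46, stands to the left of all others, and St6gal1, Mgat5 and B4galt1 lie between -0.54 and -0.44.

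St3gal1 adds sialic acid to the third carbon of galactose and caps the core 1 disaccharide of O-glycans. It was listed at 4.45, 6.51 and 4.58 RPKM in the MEF WT libraries and at 1.41, 0.901 and 1.40 RPKM in the Nf2 KO-labelled libraries. The groups did not overlap, and the lowest MEF WT library was more than 3 times the highest of the other line. The means were 5.18 ± 1.16 and 1.24 ± 0.291 RPKM (SD, n = 3 each), a ratio of 4.19 between MEF WT and the Nf2 KO-labelled libraries. St3gal1 fell by 1.46 on the log2(RPKM + 1) scale (SE 0.17, 95% interval -1.86 to -1.06, limma adjusted p = 0.023, and 0.0132 with the block). By size of p it was the 36th of the 11067 genes. The values rested on 118.5 to 1914.8 reads by the depth estimate. The gene lies at chr15:67102875-67176830, minus strand (GRCm38, GENCODE vM21), overlaps no exon of another gene, and shares 1.51% of its 31-base stretches with other genes. The direction was the same when any library was left out, but the call was lost without 4 of the 6. The adjusted p was 0.0943 without MEF WT replicate 1, 0.0965 without MEF WT replicate 3, 0.13 without the Nf2 KO-labelled replicate 1 and 0.109 without its replicate 3. Without replicate 2 of both lines St3gal1 stayed lower, at -1.20 (limma adjusted p = 0.00275), and it did not pass without replicate 1 (0.446) or without replicate 3 (0.385). With the block it did not pass without replicate 1 (0.0516) and passed without replicate 3 (0.0385).

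The other genes of the St3gal family did not pass the test in either fit. St3gal5 makes GM3, the first ganglioside of its series, and was the highest of the family at 20.8, 16.9 and 19.8 RPKM in MEF WT and 26.9, 18.1 and 23.9 RPKM in the Nf2 KO-labelled libraries. It was higher in each pair but the groups overlapped (log2 fold change 0.24, SE 0.16, limma adjusted p = 0.803, and 0.131 with the block). St3gal4, which caps the antennae of N-glycans, was the 1 tested member whose Nf2 KO-labelled libraries all lay above MEF WT, at 18.6, 14.0 and 14.1 RPKM against 13.4, 12.9 and 12.8 RPKM (log2 fold change 0.23, limma adjusted p = 0.693). Of its 31-base stretches 12.07% are shared, most with the antisense gene 4930581F22Rik, and whether counting used the strand is not stated. St3gal2, which acts on O-glycans and gangliosides, had means of 17.8 ± 1.71 and 15.2 ± 1.04 RPKM (n = 3 each, log2 fold change -0.22, limma adjusted p = 0.599), and St3gal3, which acts on N-glycan antennae, 8.67 ± 1.30 and 8.67 ± 0.627 RPKM. St3gal6 was under the filter at 0.148 to 0.615 RPKM. The family sum overlapped between the lines, at 60.2 to 66.5 RPKM in MEF WT and 55.3 to 72.1 RPKM in the Nf2 KO-labelled libraries. The share of St3gal1 in that sum was 8.15% ± 2.32 in MEF WT and 1.92% ± 0.281 in the Nf2 KO-labelled libraries (SD, n = 3), and that of St3gal5 29.8% ± 1.58 and 35.8% ± 2.63. The value of St3gal1 divided by that of St3gal5 was 0.214, 0.385 and 0.232 in MEF WT and 0.0526, 0.0497 and 0.0586 in the Nf2 KO-labelled libraries.

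St6gal1 puts sialic acid on the sixth carbon of galactose at the end of N-glycan antennae. Its levels were 3.79, 3.39 and 4.98 RPKM in MEF WT and 2.35, 2.09 and 3.01 RPKM in the Nf2 KO-labelled libraries. The groups did not overlap, and the difference within each pair was close to the same (-0.52, -0.51 and -0.58 on the log2(RPKM + 1) scale). The log2 fold change was -0.53 (SE 0.16, 95% interval -0.91 to -0.15, limma adjusted p = 0.262), and with the block St6gal1 passed (SE 0.067, limma adjusted p = 0.0132). With the block and a pair left out, the adjusted p was 0.0524 without replicate 1, 0.0471 without replicate 2 and 0.0562 without replicate 3. The gene lies at chr16:23224740-23360350, plus strand, and its exons overlap the antisense gene BC106179, with 3.5% of its 31-base stretches shared.

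The St6galnac genes add sialic acid to N-acetylgalactosamine of O-glycans and gangliosides. St6galnac6, which acts on gangliosides, had the highest mean over all libraries. It was at 6.80, 4.30 and 7.11 RPKM in MEF WT and 5.82, 3.89 and 5.88 RPKM in the Nf2 KO-labelled libraries. Its lowest value in each line was in replicate 2, the groups overlapped, and the log2 fold change was -0.18 (SE 0.21, limma adjusted p = 0.937). St6galnac4, an enzyme of O-glycans, had means of 4.16 ± 0.0750 and 4.02 ± 0.514 RPKM (n = 3 each). St6galnac2 was at 0.241 to 0.624 RPKM, and St6galnac3 and St6galnac5 were at 0.0184 RPKM or less.

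The St8sia genes make chains of sialic acid on sialic acid, and all 6 were under the filter. St8sia2, a polysialyltransferase of the neural cell adhesion molecule, was the only one of the 16 members under the filter whose lines did not overlap, where 9.42% of all 15164 genes under the filter showed such separation. It was listed at 0.110, 0.0881 and 0.140 RPKM in MEF WT and at 0.483, 0.356 and 0.503 RPKM in the Nf2 KO-labelled libraries. By the depth estimate these are about 8.0, 9.0 and 45.8 reads against 46.8, 36.8 and 197.1 reads. The ratio of the means was 0.252 for MEF WT to the Nf2 KO-labelled libraries, but on the log2(RPKM + 1) scale without a filter the difference was 0.38 (SE 0.069, limma adjusted p = 0.194), and the exact permutation test gave p = 0.1, the smallest that 3 against 3 libraries allow. St8sia1, St8sia3, St8sia4, St8sia5 and St8sia6 were at 0.0111 RPKM or less in every library.

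**Figure D3:**
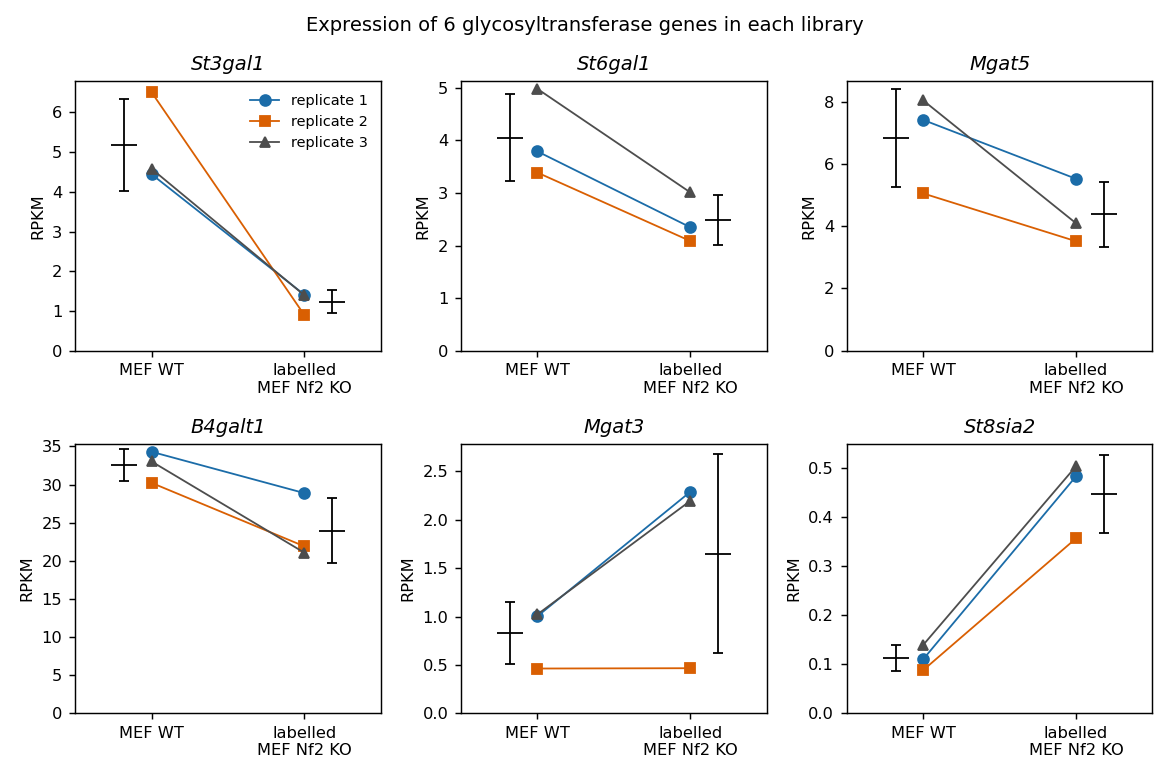
RPKM of 6 members in each library, with lines joining libraries of the same replicate number, and bars for the mean and SD of each line (n = 3). St3gal1, St6gal1, Mgat5 and B4galt1 are lower on the right in each replicate, St8sia2 lies at 0.0881 to 0.140 RPKM on the left and 0.356 to 0.503 RPKM on the right, and Mgat3 separates in replicates 1 and 3 but not in replicate 2.

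The B4galt genes add galactose to N-acetylglucosamine or, for glycolipids, to glucose. B4galt1, the main enzyme of N-glycan antennae, was the highest at 34.3, 30.2 and 33.03 RPKM in MEF WT and 28.9, 21.9 and 21.1 RPKM in the Nf2 KO-labelled libraries. The groups did not overlap, although MEF WT replicate 2 and the Nf2 KO-labelled replicate 1 were 30.2 and 28.9 RPKM. The log2 fold change was -0.44 (SE 0.14, 95% interval -0.77 to -0.11, limma adjusted p = 0.293), and with the block B4galt1 passed (adjusted p = 0.0452). That call was kept without replicate 1 (0.0485) and was lost without replicate 2 (0.159) and without replicate 3 (0.135). The share of B4galt1 in the family sum was 49.6% ± 1.82 in MEF WT and 42.2% ± 2.51 in the Nf2 KO-labelled libraries. The gene lies at chr4:40804602-40854005, minus strand, and shares no 31-base stretch with another gene.

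The other 5 B4galt genes did not pass in either fit, and their log2 fold changes ran from -0.15 to 0.29. B4galt4, an enzyme of sulfated chains, was 2.78 ± 0.437 RPKM in MEF WT and 3.67 ± 0.822 RPKM in the Nf2 KO-labelled libraries and was higher in all 3 pairs (limma adjusted p = 0.683). B4galt5 and B4galt6, which make lactosylceramide, the base of most glycolipids, had log2 fold changes of -0.053 and 0.0098, with 95% intervals of -0.39 to 0.28 and -0.20 to 0.22. B4galt2 and B4galt3 had log2 fold changes of -0.15 and -0.025. Of their 31-base stretches 26.72% and 13.66% are shared, most with Ccdc24 and Ppox, whose exons overlap theirs. The B3galt genes join galactose by another linkage. B3galt4, the GM1 ganglioside enzyme, was the only one tested, at 0.987, 0.801 and 1.18 RPKM in MEF WT and 1.29, 0.656 and 1.18 RPKM in the Nf2 KO-labelled libraries, and its log2 fold change of 0.029 (SE 0.16) was smaller than the spread between replicates. B3galt1 was at 0.504 to 1.01 RPKM and B3galt2 at 0.0176 RPKM or less.

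The Mgat genes set the number of N-glycan antennae. Mgat5, which starts the branch that carries long lactosamine chains bound by galectins, was listed at 7.41, 5.05 and 8.04 RPKM in MEF WT and at 5.52, 3.52 and 4.09 RPKM in the Nf2 KO-labelled libraries. It was lower in each pair, but the groups overlapped, because MEF WT replicate 2 lay below the Nf2 KO-labelled replicate 1. The log2 fold change was -0.54 (SE 0.20, 95% interval -1.02 to -0.06, limma adjusted p = 0.408), and with the block Mgat5 passed (SE 0.11, limma adjusted p = 0.0415). With a pair left out of the block fit it no longer passed, at adjusted p values of 0.0838, 0.097 and 0.0883 without replicates 1, 2 and 3. The gene lies at chr1:127205015-127488336, plus strand, and its exons overlap the antisense gene Tmem163.

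Mgat3 adds the bisecting N-acetylglucosamine, which hinders further branching by Mgat5. It was chosen after its values were seen, because its call turns on 1 replicate. Its levels were 1.00, 0.463 and 1.02 RPKM in MEF WT and 2.29, 0.467 and 2.19 RPKM in the Nf2 KO-labelled libraries. Replicates 1 and 3 were more than 2 times higher in the Nf2 KO-labelled libraries, and both replicates 2 were the lowest and nearly equal. The log2 fold change was 0.46 (SE 0.33, 95% interval -0.34 to 1.26, limma adjusted p = 0.824, and 0.162 with the block). Without replicate 2 it was 0.69 and passed (limma adjusted p = 0.0249, and 0.0379 with the block). By the depth estimate the 2 replicates numbered 2 had 40.8 and 41.8 reads of Mgat3. The ratio of Mgat5 to Mgat3 was 7.39, 10.9 and 7.87 in MEF WT and 2.42, 7.53 and 1.87 in the Nf2 KO-labelled libraries, so that the groups overlapped through replicate 2. Summed markers moved with replicate 2 as well, the muscle, endothelial and epithelial sums mainly through Acta1, Kdr and Krt19. In the replicates 2 of MEF WT and of the other line, muscle markers summed to 6.65 and 3.16 RPKM (0.931 to 1.32 RPKM in the other libraries), endothelial markers to 3.89 and 4.46 RPKM (1.46 to 1.84 RPKM), epithelial markers to 39.9 and 28.0 RPKM (10.8 to 23.7 RPKM) and fibroblast markers to 1853 and 1444 RPKM (1654 to 2550 RPKM). Their part in the Mgat3 values was not tested.

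The remaining Mgat genes did not pass in either fit. Mgat2, which turns hybrid into complex N-glycans, had the highest mean of the family over all libraries. It was listed at 35.1, 39.0 and 36.8 RPKM in MEF WT and 32.7, 36.2 and 31.9 RPKM in the Nf2 KO-labelled libraries. It was lower in each pair (log2 fold change -0.13, SE 0.094, limma adjusted p = 0.813), but the groups overlapped. Mgat1, which opens the path to all hybrid and complex chains, had means of 20.5 ± 4.15 and 18.8 ± 3.86 RPKM, and was highest in replicate 2 of each line. Mgat4b, which starts another antenna, had means of 35.6 ± 8.91 and 31.03 ± 4.68 RPKM and was lowest in replicate 2 of each line. Its relative Mgat4a was at 0.813 to 1.45 RPKM, with a log2 fold change of -0.13. Mgat5b, Mgat4d and Mgat4e were at 0.147 RPKM or less. The summed Mgat levels were 95.6 to 107 RPKM in MEF WT and 88.1 to 92.8 RPKM in the Nf2 KO-labelled libraries, without overlap.

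The Fut genes added no call, and their 4 tested members had log2 fold changes from -0.28 to -0.065. Fut8, which adds fucose to the innermost sugar of N-glycans, was 2.70, 2.94 and 2.78 RPKM in MEF WT and 2.49, 2.51 and 2.65 RPKM in the Nf2 KO-labelled libraries. The groups did not overlap, but the difference was small (log2 fold change -0.10, SE 0.090, 95% interval -0.31 to 0.12, limma adjusted p = 0.897). Of its 31-base stretches 6.0% are shared with other genes, and its exons overlap the antisense gene 9530018F02Rik. Fut10 had the highest mean of the family over all libraries. It was at 3.41, 2.61 and 2.96 RPKM in MEF WT and 3.24, 2.47 and 2.75 RPKM in the Nf2 KO-labelled libraries, with groups that overlapped (log2 fold change -0.065, limma adjusted p = 0.979). Fut11 had means of 1.503 ± 0.425 and 1.06 ± 0.242 RPKM (log2 fold change -0.28, limma adjusted p = 0.733), and Fut4, which makes Lewis x, 1.33 ± 0.357 and 1.03 ± 0.238 RPKM. Fut2, the secretor enzyme, was at 0.00301 RPKM or less.

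The genes around these enzymes were described by 6 lists with 105 tested genes. Of these, 1 passed without the block and 9 with it, beside the 1.06% and 7.53% of all genes. The 1 is Gfpt2, which met the filter on low values only through its MEF WT libraries and so had to differ, and it is given as values and not as support for a change in the list. The lists of the N-glycan precursor, its transfer and trimming (38 genes tested) and of the conserved oligomeric Golgi complex, which keeps Golgi enzymes in place (8 genes tested), held 0 calls in either fit by limma, and 1 and 0 genes at an unadjusted p under 0.05. Their median log2 fold changes were 0.011 and 0.070. Their highest genes were Ddost, a subunit of the enzyme that transfers the precursor to proteins, at 125 to 137 RPKM, and Cog4 at 11.96 to 18.7 RPKM.

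Among the 23 tested genes of sugar donor supply 1 passed in each direction with the block, the lower one being Gfpt2. Gfpt2, an enzyme of the first step toward UDP-N-acetylglucosamine, was 1.46, 1.12 and 1.07 RPKM in MEF WT and 0.287, 0.195 and 0.379 RPKM in the Nf2 KO-labelled libraries, without overlap. The means were 1.22 ± 0.214 and 0.287 ± 0.0923 RPKM (n = 3 each), a ratio of 4.24. All 3 Nf2 KO-labelled values were under the 1 RPKM of the filter. The difference was -0.78 on the log2(RPKM + 1) scale (SE 0.13, limma adjusted p = 0.0499, and 0.0158 with the block), and with no filter it did not pass (0.137). With a pseudocount of 0.1 the difference was -1.78 and did not pass (limma adjusted p = 0.0552), and with a pseudocount of 1 the call was lost when any single library was left out (adjusted p 0.0715 to 0.215). Cmas, which activates sialic acid for the transferases, was 5.55, 5.53 and 6.43 RPKM in MEF WT and 7.54, 7.37 and 8.03 RPKM in the Nf2 KO-labelled libraries, without overlap. It passed only with the block (log2 fold change 0.34, limma adjusted p = 0.219 without and 0.0344 with it), and not once any pair was left out (0.0935 to 0.138). With the block Gfpt2 did not pass without replicate 1 (0.0644) or replicate 2 (0.0598). The highest gene of the list was Galk1, a galactose kinase, at 40.7 to 57.2 RPKM. The median of the list was 0.019.

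Of the 17 tested genes for other Golgi transferases of the same chains, 0 passed without the block by limma (3 at an unadjusted p under 0.05). With the block 4 passed, all lower in the Nf2 KO-labelled libraries. Over all genes 7.53% passed with the block, 502 lower and 331 higher. B4galnt1, which makes the gangliosides GM2 and GD2, was 5.16, 4.80 and 5.15 RPKM in MEF WT and 3.14, 2.20 and 3.04 RPKM in the Nf2 KO-labelled libraries, without overlap (log2 fold change -0.68, SE 0.12, limma adjusted p = 0.0746, and 0.0126 with the block). It passed also with quantile normalization (0.0357) and with median centring (0.0441). Gcnt4, an O-glycan branching enzyme, was 2.03, 3.77 and 3.64 RPKM against 1.31, 1.26 and 1.58 RPKM, again without overlap (-0.77, adjusted p = 0.178 by limma, and 0.035 with the block). A4galt, which makes the glycolipid Gb3, had a log2 fold change of -0.80 (limma adjusted p = 0.0404 with the block, and a difference of -1.33 with a pseudocount of 0.1), and B3gnt9, of the family that extends chains with N-acetylglucosamine, one of -0.60 (0.00815 with the block). In both the groups overlapped, at 1.27 to 3.30 against 0.410 to 1.67 RPKM and at 4.73 to 9.37 against 2.72 to 5.67 RPKM. With the block and a pair left out, B4galnt1 and B3gnt9 still passed each time (adjusted p 0.0346 to 0.036 and 0.0317 to 0.0362). A4galt did not (0.0646 to 0.118), and Gcnt4 did not without replicate 2 (0.0992) or replicate 3 (0.116). Without replicate 2 and without the block B4galnt1 and B3gnt9 passed (0.0248 and 0.0337). With single libraries left out the log2 fold change of B3gnt9 ran from -0.34 (without the Nf2 KO-labelled replicate 2) to -0.85 (without MEF WT replicate 2). The gene with the highest mean over all libraries was Ugcg, glucosylceramide synthase, at 20.1 to 36.3 RPKM. The list median was -0.060.

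Galectins bind the galactose ends of these chains. Of the 4 tested 2 passed with the block, in opposite directions, where 7.53% of all genes passed. Without it 0 passed by limma (2 at an unadjusted p under 0.05). Lgals3 was 33.1, 31.4 and 23.7 RPKM in MEF WT and 9.85, 18.2 and 10.2 RPKM in the Nf2 KO-labelled libraries, without overlap (log2 fold change -1.18, SE 0.25, limma adjusted p = 0.115, and 0.0198 with the block). Lgals9 was 21.7, 28.1 and 24.9 RPKM in MEF WT and 42.9, 61.8 and 43.9 RPKM in the Nf2 KO-labelled libraries, without overlap (0.95, SE 0.17, limma adjusted p = 0.0723, and 0.00543 with the block). Without replicate 2 both passed also without the block (0.00712 and 0.00801), and in the block fit Lgals3 did not pass without replicate 3 (0.11). Lgals1 was the highest, at 877 to 1597 RPKM, with overlapping groups. Of the 15 tested genes for glycan removal 1 passed with the block, Gla, the lysosomal alpha-galactosidase. It was 15.9, 6.93 and 12.6 RPKM in MEF WT and 10.7, 5.61 and 6.96 RPKM in the Nf2 KO-labelled libraries, with overlap (log2 fold change -0.52, limma adjusted p = 0.755 without and 0.045 with the block). With single libraries left out that change ran from -0.29 (without MEF WT replicate 1) to -0.83 (without MEF WT replicate 2). The block call was lost without replicate 1 (0.167) and without replicate 3 (0.112), and without the block 0 genes of the list passed by limma (0 at an unadjusted p under 0.05). Ctsa, the protective protein of lysosomal sialidase, was the highest of that list at 44.8 to 81.2 RPKM.

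**Figure D4:**
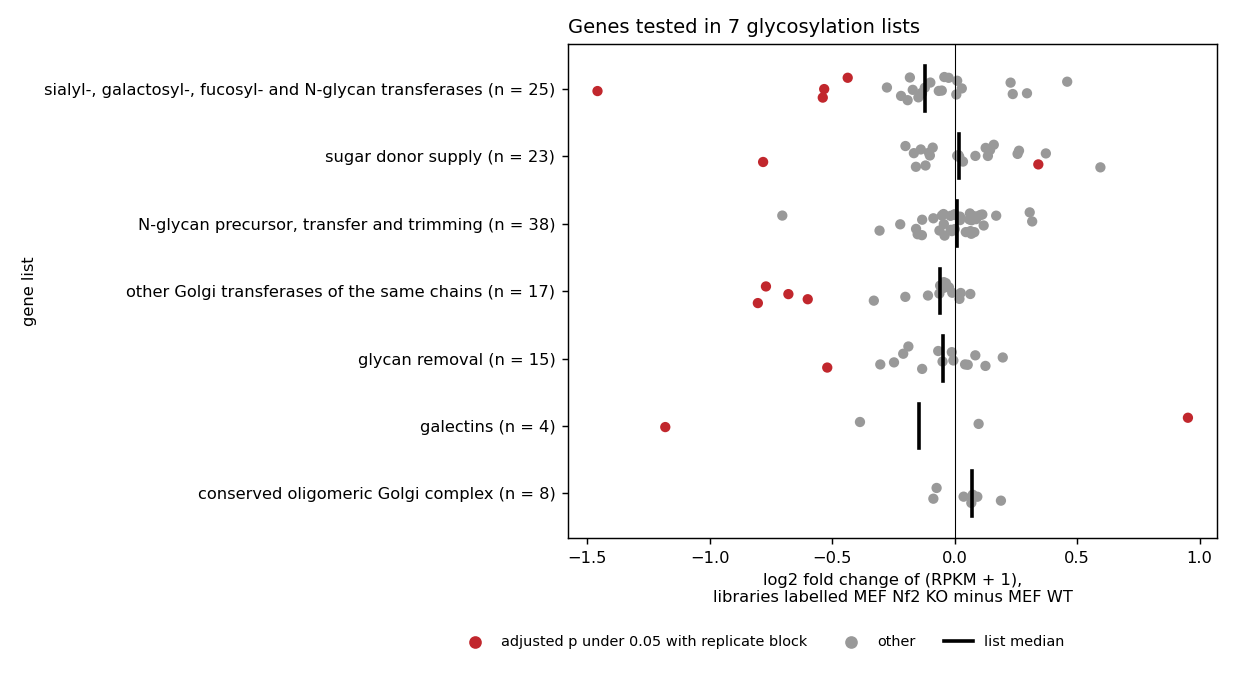
Log2 fold change of (RPKM + 1) of each tested gene of the member list and of 6 related lists, Nf2 KO-labelled minus MEF WT, with a bar at each list's median and red points for genes past the threshold with the replicate block. Red points lie mostly left of 0, and 2 genes, Cmas and Lgals9, lie to the right.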

How the data were processed

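RNA from 6 libraries was analysed as a single table of RPKM that the authors deposited (libraries, sequencing and data analysis by GENEWIZ). The build mm10 is named in the submitters' processing notes. The aligner, the counting tool and any strand setting are not given in the sources used here. The unit was inferred from the values: columns sum to 250088 to 263424, and 86.4% to 87.9% of values of up to 20 reads, multiplied by GENCODE vM21 exon length, were within 0.1 of whole multiples of a single step, where chance gives 20%. Depths and reads per gene come from that step, so they are estimates, and low genes have larger counting error in the shallower replicates 1 and 2.

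The 11067 genes that reached 1 RPKM in 3 or more libraries were tested on log2(RPKM + 1), a scale that understates changes of low genes, with limma 3.58.1 in R 4.3.3 (trend and robust eBayes, two-sided). The study's methods name an unpaired test, so the replicate block was the other fit. The correlation across genes between 2 libraries of the same number, each taken relative to the mean of its line, was 0.552, 0.819 and 0.516. Each was over 0.1, and the numbers were treated as pairs. With libraries of another number it ran from -0.604 to 0.322 for MEF WT replicate 1, and from -0.666 to -0.534 for replicate 2. For replicate 3 it ran from -0.681 to 0.493. Only replicate 2 was thus clearly set apart as a pair, and calls made only with the block rest on this pairing. Alternatives were plain eBayes, the block, median centring, quantile normalization, a filter of 5 RPKM or none, a pseudocount of 0.1, and leaving out libraries or pairs. The method was tested on simulated data. The members and lists were chosen with earlier results of these data known. Per-library values are given for members past the threshold in either fit or with an unadjusted p under 0.05. They are also given for the member of each family with the highest mean and for members under the filter whose lines did not overlap. List genes are named where they passed in either fit or had the highest mean of a list. St3gal4 and Fut8, and the single markers Col1a1, Col3a1, Pdgfra, Pdgfrb, Fn1, Thy1, Vim, Krt19, Kdr, Acta1, Ptprc and Cdh1, were chosen after their values were seen. Of the members, 40 of 41 had a GENCODE exon length. Figures were drawn with matplotlib 3.10.9.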

Additional observations from a re-analysis of the deposited data

How the results depend on the processing

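St3gal1 was lower in the Nf2 KO-labelled libraries under every alternative that tested it. The number of members past the threshold was 1 and stayed 1 without trend and robust settings, with quantile normalization, with median centring and with a pseudocount of 0.1. It was 0 of 41 with no filter (St3gal1 adjusted p = 0.112 by limma, 5 members at an unadjusted p under 0.05) and 0 of 13 with a filter of 5 RPKM, where St3gal1 was not tested. With the replicate block it was 4, and without replicates 1, 2 and 3 in that paired fit it was 1, 3 and 1, the 3 being Mgat3, St3gal1 and St6gal1. Leaving out libraries or pairs without the block gave 0 to 2. Over all genes the 117 calls became 9 with no filter, 63 with a filter of 5 RPKM, 833 with the replicate block (320, 454 and 419 without replicates 1, 2 and 3) and 0 to 484 with libraries left out. The 0 stands for the fits without replicate 1 and without replicate 3 (578 and 556 genes at an unadjusted p under 0.05 by limma). List genes past the threshold were 1, then 2 with quantile normalization and with median centring, 0 with a pseudocount of 0.1, with no filter and with a filter of 5 RPKM, 9 with the replicate block (5, 6 and 4 without replicates 1, 2 and 3) and 0 to 6 with libraries left out. The median log2 fold change of the members was -0.12, with -0.083 under quantile normalization, -0.0053 over 41 members with no filter and -0.13 to -0.066 with libraries or pairs left out (-0.10 in the block fit without replicate 3). With libraries or pairs left out the log2 fold change of B3galt4 ran from -0.062 to 0.17 and that of Fut10 from -0.14 to 0.0087. B3galt4 turned below 0 without MEF WT replicate 2 (-0.041), without the Nf2 KO-labelled replicate 1 (-0.062) or 3 (-0.025), and without replicate 1 in either fit (-0.061), and Fut10 turned above 0, to 0.0087 without MEF WT replicate 1 and 0.0006 without the Nf2 KO-labelled replicate 2. The cause was not tested.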

Other observations

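Gcnt1, the main O-glycan core 2 branching enzyme, was under the filter and was chosen after its values were seen. It was listed at 0.293, 0.133 and 0.454 RPKM in the MEF WT libraries and at 0.0595, 0.0093 and 0.0368 RPKM in the Nf2 KO-labelled libraries, without overlap. Of all 15164 genes under the filter 9.42% showed such separation. Man2a1, a mannosidase that trims N-glycans before the second antenna, did not pass in either fit and was also chosen after its values were seen. It was 37.2, 36.0 and 48.9 RPKM in MEF WT and 23.7, 27.6 and 22.04 RPKM in the Nf2 KO-labelled libraries, without overlap (log2 fold change -0.70, SE 0.15, limma adjusted p = 0.117, and 0.0514 with the replicate block). Without replicate 2 it passed with and without the block.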
